A study of Mus musculus with 30 samples.

Results

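Transcript levels of 31 genes for fatty acid uptake and oxidation were measured in quadriceps muscle and spinal cord of mice without acid alpha-glucosidase (Gaa), the lysosomal enzyme missing in Pompe disease. The genes were chosen by name and are 31 of the 17420 genes in the table. They cover uptake and binding (Cd36, Fabp3, Slc27a1), activation (Acsl1), the carnitine shuttle (Cpt1a, Cpt1b, Cpt2, Slc25a20), the acyl-CoA dehydrogenases (Acadvl, Acadl, Acadm, Acads) and the later steps of the beta-oxidation spiral (Hadha, Hadhb, Echs1, Hadh, Acaa2). The others handle unsaturated chains (Ech1, Eci1, Eci2, Decr1), electron transfer (Etfa, Etfb, Etfdh), the lipid droplet and lipolysis (Plin2, Pnpla2, Lipe), uncoupling (Ucp3) and regulation (Ppara, Ppard, Ppargc1a). The study held 15 male mice aged 4 months in 5 groups of 3, and both tissues were taken from each mouse, giving 30 libraries. Wild-type and knockout mice (Gaa WT, Gaa KO) were on a B6;129 background or on a mixed B6;129;DBA2/J background, written B6129 and mixed here. Every mixed mouse, wild type included, carried the Ltbp4D36/D36 allele. The treated group was Gaa KO mice of the mixed background that had been injected in the temporal vein at postnatal day 1 to 2 with AAV9-sp7-Δ8-hGAAco, a vector for secreted human GAA under a liver-muscle promoter. No B6129 mouse was treated, and no vehicle-injected or empty-vector group was analysed here. The B6129 libraries form series A and the mixed libraries series B in the column names, and what belongs to the series cannot be told apart from what belongs to the background. Each p-value rests on the spread between the 3 mice within a group, pooled over all groups in the fit.

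Long-chain fatty acids enter a muscle fibre with the help of the scavenger receptor CD36 and the transport protein encoded by Slc27a1, and are carried in the cytosol by the heart-type fatty acid binding protein encoded by Fabp3. They are activated to acyl-CoA, passed into mitochondria by the carnitine shuttle, and shortened in repeated rounds of dehydrogenation, hydration, a further dehydrogenation and thiolysis. Electrons from the first step reach the respiratory chain through electron transfer flavoprotein and its dehydrogenase. Much of the programme in muscle is under the PPAR nuclear receptors and the coactivator encoded by Ppargc1a, and fatty acids released from the muscle's own droplets by adipose triglyceride lipase (Pnpla2) serve both as fuel and as PPAR ligands. In Pompe disease glycogen collects in lysosomes, in muscle and in motor neurons.

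Values are deposited normalized counts on a linear scale, called signal below. In quadriceps, a read was worth 0.0329 to 0.072 units of signal, at 1.69e+07 to 3.71e+07 reads per library. The cord libraries held 1.92e+07 to 3.42e+07 reads. A gene is called changed at a Benjamini-Hochberg adjusted p under 0.05 over all genes tested in limma, and differences are on the log2(signal + 0.5) scale with a standard error (SE). Mouse Gaa was lower in every KO library of quadriceps (11.6 to 16.7) than in any WT library (169 to 308). In cord it read 10.6 to 17.7 in KO and 131 to 236 in WT mice. The treated mice stood at 17.1 to 18.9 in quadriceps and 8.09 to 10.3 in cord; their vector carries human GAA, which the mouse row does not measure. Muscle fibre markers summed to 155731 to 282180 in quadriceps while neuronal markers summed to 1.44 to 9.41, and in cord neuronal markers summed to 4613 to 7279. Muscle markers were present in cord at sums of 42.7 to 1721, with WT mixed mice at both ends and treated mice at 61.8 to 1360. Within the treated group, mouse 21 was lowest of the 3 for 28 of the 31 genes in quadriceps, and mouse 6 of the mixed KO group for 30 of 31. On B6129, WT mouse 4 was lowest for 27 and WT mouse 6 highest for 26, and KO mouse 3 was lowest for 24 and KO mouse 1 highest for 23.

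In wild-type muscle the genes spanned a wide range of levels, given here per kb of exon so that genes can be compared. Fabp3 stood first on B6129 at 774 ± 305 (SD, n = 3), followed by Acadvl at 229.8 ± 38.4, which opens the spiral for very long chains, Acadl at 225 ± 43.2 and Etfb at 201 ± 16.0. These followers overlapped each other, whereas Fabp3 did not overlap Acadvl. The regulators stood low, with Ppargc1a at 8.15 ± 0.353, Ppard at 4.57 ± 0.142 and Ppara at 2.57 ± 0.489 per kb, and Cpt1a, the liver-type carnitine palmitoyltransferase, was lowest at 0.915 ± 0.303. The muscle-type enzyme encoded by Cpt1b stood at 139 ± 15.9 per kb in the same muscles.

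Per gene, 30 of the 31 genes had a higher mean in quadriceps than in cord on both backgrounds, with no overlap between the 3 and 3 WT libraries. The median ratio of quadriceps to cord was 10.95 on B6129 and 9.205 on the mixed background. These ratios are on the deposited scale and depend on how libraries are scaled. In B6129 WT mice the deposited signal summed to 1.48e+06 to 1.54e+06 in quadriceps and to 611722 to 612932 in cord. The 31 genes together held 0.498% to 0.652% of reads in quadriceps and 0.131% to 0.134% in cord of these mice. Ratios between tissues under other scalings were not tested. Cd36 had the highest ratio on B6129, 412, with 1.24 ± 0.562 signal units in cord (SD, n = 3), and Cpt1b followed with a ratio of 177. Muscle fibre markers summed to 48.1 to 562 in these cords and to 216180 to 233044 in the quadriceps. The part of muscle RNA in the cord values of Cd36 and Cpt1b was not tested. Slc27a1 (1.53) and Ppargc1a (2.08) had the lowest ratios above 1. The exception in both backgrounds was Cpt1a, at 6.99 ± 2.32 in quadriceps and 37.1 ± 3.69 in cord of B6129 WT mice. In cord of B6129 WT mice the order per kb was again led by Fabp3 (22.6 ± 0.809), then Etfb (20.8 ± 0.351) and Acadl (18.9 ± 0.760), none of which overlapped the next, while Slc27a1 stood 6th at 13.7 ± 0.476. In mixed WT cord Etfb (47.6 ± 1.91) and Fabp3 (46.0 ± 1.69) led and overlapped, and Slc27a1 was 10th. Cd36 and Ppara closed the order in B6129 WT cord at 0.344 ± 0.157 and 0.237 ± 0.0110 and overlapped each other. Those values rest on 39 to 58 reads per library for Cd36 and 30 to 49 for Ppara.

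**Figure D1:**
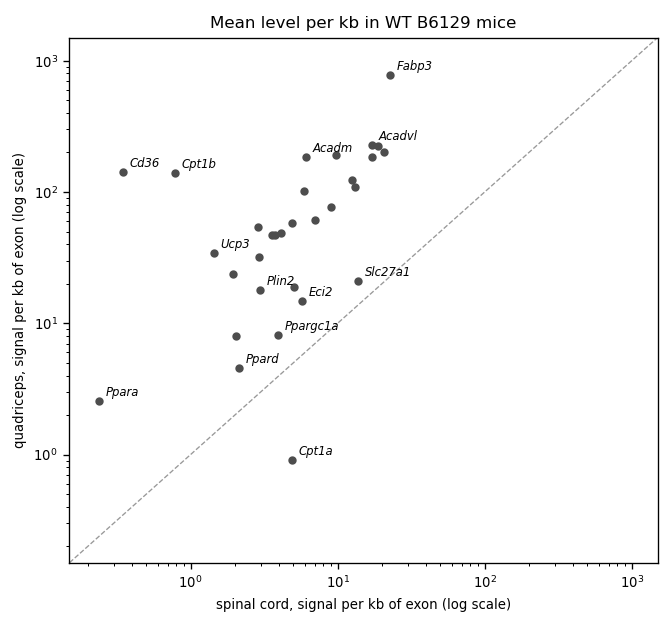
Mean deposited signal per kb of exon in B6129 WT mice (n = 3), spinal cord on the x axis and quadriceps on the y axis, both on log scales. A dashed line marks equal levels on the deposited scale. Of the 31 genes, 30 lie above the line and Cpt1a lies below it.

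In quadriceps of KO mice the genes lay lower than in WT mice, with few passing the test. On B6129, 5 of 31 were called and all 5 fell, where 35.8% of all 14113 genes tested were called (16.7% higher and 19.0% lower). On the mixed background 7 of 31 were called and all 7 fell, against 39.4% of all genes (17.1% higher and 22.3% lower). Cpt1b, Etfa and Etfdh fell on both backgrounds. A difference below 0 was seen for 28 of 31 genes on B6129 and 26 of 31 on the mixed background, where 52.3% and 53.2% of all genes tested had one. For 25 genes the sign was negative on both. The median difference of the 31 genes was -0.27 on B6129 and -0.20 on the mixed background, beside medians over all genes of -0.02 and -0.04. The mixed median was -0.11 without KO mouse 6 and -0.33 without KO mouse 7. In 14 genes on B6129 every KO library lay below every WT library (29.0% of all genes did), and in 0 above (24.9%); on the mixed background 9 lay wholly below (25.8%) and 1 wholly above (20.6%). The test of whether the knockout difference itself differed between backgrounds called none of the 31 genes (0.283% of all genes). At an unadjusted p under 0.05 it gave 3, edgeR called 0 and DESeq2 called 1. The knockout comparisons share no mice, but within the mixed background the same KO mice enter the comparison with WT and that with treated mice. Leaving out WT mouse 5, KO mouse 2 or KO mouse 3 lowered the B6129 count to 3, and leaving out WT mouse 4 or KO mouse 6 lowered the mixed count to 4.

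**Figure D2:**
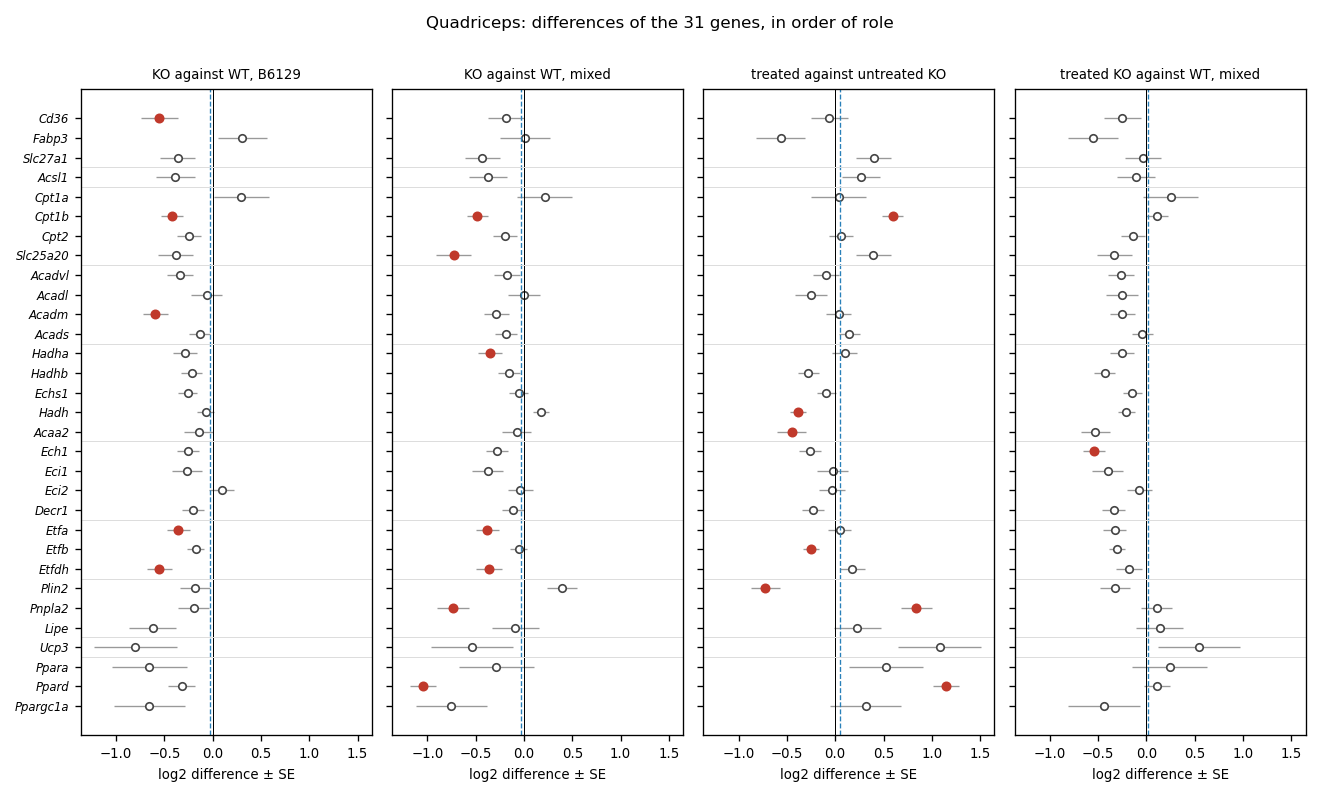
Log2 differences ± SE in quadriceps for the 31 genes in order of role, in 4 comparisons of 3 against 3 mice, with filled red points for genes called at an adjusted p under 0.05 and a dashed blue line at the median of all genes tested. The KO panels hold 5 and 7 filled points, all left of 0, and the panel of treated against untreated KO mice holds 3 on the right and 4 on the left.

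The sign of these differences is relative to how libraries are scaled. The deposited signal summed to 1.48e+06 to 1.60e+06 in WT and treated quadriceps and to 1.16e+06 to 1.31e+06 in KO quadriceps. The mitochondrial genes held 17.3% to 21.1% of reads in WT and 13.2% to 16.2% in KO quadriceps of B6129, and 14.7% to 18.3% in mixed mice. When libraries were instead scaled to total reads, the median over all genes moved to 0.24 in both KO comparisons, and that of the 31 genes to 0.02 on B6129 and 0.10 on the mixed background. The gap between the 31 genes and all genes changed little, from -0.24 to -0.22 on B6129 and from -0.16 to -0.15 on the mixed background. Under total reads 3 of the 31 genes were called on B6129 (2 higher, 1 lower) and 6 on the mixed background (3 and 3). On B6129, at most 1 of Cpt1b, Etfa and Etfdh therefore kept its call as lower under that scaling. Over all genes the share of calls that were higher moved from 46.75% to 83.31% on B6129 and from 43.4% to 80.62% on the mixed background. With quantile normalization the gap on the mixed background shrank to -0.05.

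**Figure D3:**
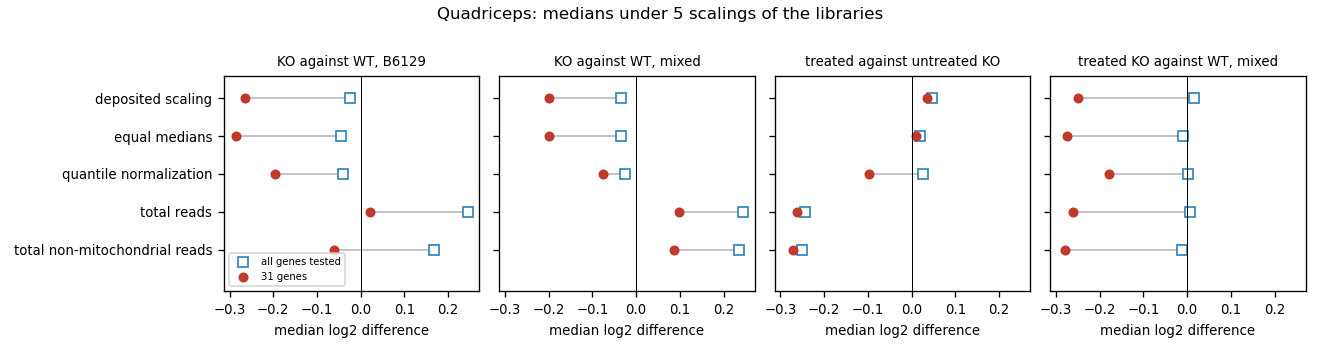
Median log2 difference of the 31 genes (red circles) and of all genes tested (open blue squares) in quadriceps under 5 ways of scaling the libraries, for 4 comparisons. In both KO panels the red circle stays left of the blue square under every scaling, while both shift to the right under total reads.

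With treatment, 7 of the 31 genes differed from untreated KO muscle, 3 higher (Ppard, Pnpla2, Cpt1b) and 4 lower (Plin2, Hadh, Acaa2, Etfb), where 40.6% of all genes were called (23.6% higher and 17.1% lower). All treated libraries lay above all untreated KO libraries for 4 genes (27.8% of all genes) and below for 3 (21.6%). The median difference was 0.04 for the 31 genes and 0.05 for all genes, and that of the 31 genes ranged from -0.06 to 0.14 with 1 mouse left out. Under total reads 3 genes were higher and 15 lower, the median of the 31 genes was -0.26 and that of all genes -0.24, and the share of all calls that were higher moved from 57.97% to 22.31%. Against WT mice of the mixed background, treated muscle had 1 called gene, Ech1, lower, beside 2.98% of all genes (1.93% higher and 1.05% lower). The 31 genes still had a median of -0.25 there, where all genes stood at 0.02, and 24 of 31 lay below 0 (47.1% of all genes). Every treated library was below every WT library for 11 genes (10.2% of all genes), and above for 1, Lipe (13.8%). Without treated mouse 21 the median of the 31 genes was -0.11, and without WT mouse 4 it was -0.15. The Ech1 call was lost without WT mouse 3 or 4 or treated mouse 21 or 22, and without WT mouse 1 the count was 2.

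The uptake genes did not move together. Cd36 read 413, 485 and 630.5 in B6129 WT quadriceps and 408, 332 and 296 in KO. The 3 KO mice were below the 3 WT mice, and Cd36 fell by 0.55 ± 0.19 on the log2 scale (limma, adjusted p = 0.0353), a call lost without WT mouse 5 or 6 or KO mouse 2 or 3 (-0.58 to -0.39) and kept in 9 of 16 alternative settings. On the mixed background its WT, KO and treated libraries overlapped at 316 to 548. Fabp3 read 487, 497 and 927 in WT and 732, 791 and 736 in KO mice of B6129, and 767, 676 and 1130.4 in WT, 663, 999 and 904 in KO and 433, 636 and 669.9 in treated mixed mice. A WT library was highest in each background, and no test on Fabp3 in muscle was called (adjusted p of 0.378, 0.979 and 0.0945). Slc27a1 lay at 106 to 174 in all WT libraries, 87.7 to 130.0 in KO and 129 to 169.5 in treated mice, without a call. Acsl1, the long-chain acyl-CoA synthetase of muscle mitochondria and endoplasmic reticulum, read 389.8, 475 and 607 in WT and 409, 361 and 339 in KO B6129 mice. In mixed mice it read 449.9, 432 and 678 in WT, 339, 469 and 381 in KO and 389, 469 and 577 in treated muscle. These groups overlapped, with differences of -0.39 ± 0.20 and -0.37 ± 0.20 in KO that were not called (adjusted p = 0.149 and 0.155).

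Within the carnitine shuttle, Cpt1b fell on both backgrounds and Slc25a20 on the mixed one. Cpt1b, the malonyl-CoA-sensitive entry step, read 447, 426 and 528 in B6129 WT and 365, 334 and 341 in KO quadriceps. In mixed mice it read 450.0, 418 and 482 in WT, 279, 348 and 342 in KO and 417, 519 and 528 in treated muscle. KO libraries lay below WT libraries on both backgrounds, and treated libraries above untreated KO libraries. The differences were -0.42 ± 0.11 (SE; adjusted p = 0.00947) and -0.48 ± 0.11 (adjusted p = 0.00406) in KO, and 0.59 ± 0.11 with treatment (adjusted p = 0.000839). Slc25a20, the carnitine-acylcarnitine translocase of the inner membrane, read 101, 106 and 139 in WT and 95.4, 84.1 and 83.3 in KO B6129 mice, and 96.9, 94.6 and 135 in WT, 58.1, 69.1 and 67.4 in KO and 63.7, 91.2 and 106 in treated mixed mice. KO mice lay below WT mice on both backgrounds, but only the mixed difference of -0.73 ± 0.18 was called (adjusted p = 0.00625; on B6129 -0.38, adjusted p = 0.116). Treated libraries overlapped both other mixed groups. Cpt2, which returns the chain to CoA inside the mitochondrion, read 99.0, 109.5 and 129.9 in B6129 WT, 94.8, 98.9 and 89.8 in KO, and on the mixed background 113, 113 and 141, 91.4, 121 and 108 and 98.6, 115 and 119 in WT, KO and treated mice. It was not called in any muscle comparison. Cpt1a stayed at 5.37 to 17.7 in all 15 libraries, on 74 to 338 reads.

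Among the acyl-CoA dehydrogenases the medium-chain enzyme Acadm had the clearest difference. Its libraries read 623, 731 and 823 in B6129 WT and 512, 469 and 450.5 in KO muscle. On the mixed background they read 625, 646 and 623 in WT, 442, 571 and 547 in KO and 434, 585 and 586 in treated mice. Acadm fell by 0.60 ± 0.13 on B6129 (limma, adjusted p = 0.00295), a call kept in 16 of 16 alternatives, and on the mixed background KO libraries were below WT libraries without a call (-0.29 ± 0.13, adjusted p = 0.0957). Acadvl read 506, 637 and 709 in WT and 515, 503 and 439 in KO B6129 mice, and 538, 601 and 656, 463, 563 and 564 and 424, 522 and 549 in WT, KO and treated mixed mice. Its groups overlapped, and the B6129 difference of -0.33 ± 0.13 had an adjusted p of 0.0674. Acadl and the short-chain enzyme Acads lay at 322 to 543 and 93.1 to 145 over all muscle libraries and were not called in KO or treated mice.

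**Figure D4:**
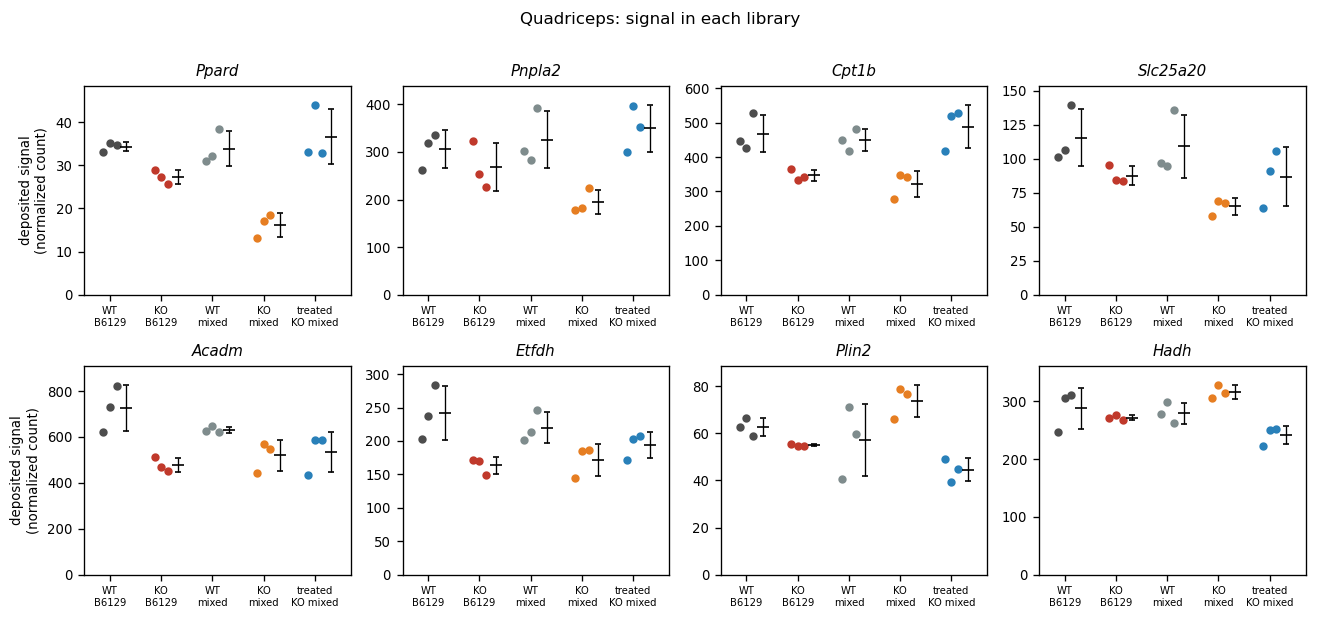
Deposited signal of 8 genes in each quadriceps library, with the mean ± SD of each group of 3 mice beside the points, on axes that start at 0. For Ppard the mixed KO mice sit at 13.1 to 18.4 and all other mice at 25.7 or above, and for Plin2 the treated mice sit at 39.4 to 49.2, below the untreated KO mice at 66.0 to 78.6.

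Of the 5 genes for later steps of the spiral, 1 was called in mixed KO muscle, none on B6129 and 2 with treatment. Hadha, the alpha subunit of the mitochondrial trifunctional protein, read 603, 662 and 761 in WT and 563, 589.6 and 502 in KO B6129 mice. In mixed mice it read 664, 676 and 759 in WT, 471, 623 and 559 in KO and 497, 614 and 656 in treated muscle. KO libraries were all below WT libraries on both backgrounds, and the mixed difference was called (-0.35 ± 0.13, adjusted p = 0.039), a call lost when any mouse but KO mouse 7 was left out (-0.39 to -0.24) and kept in 6 of 16 alternatives. Hadhb, its beta subunit, whose gene lies 85 bases from Hadha in the opposite direction, had KO differences of -0.22 and -0.15 that were not called. Hadh, the short-chain hydroxyacyl-CoA dehydrogenase, read 277, 299 and 262 in WT, 305, 328 and 315 in KO and 223, 249.6 and 252 in treated mixed mice. The KO mice were above the other groups here, and Hadh fell by 0.39 ± 0.09 with treatment (adjusted p = 0.00252). On B6129 its libraries overlapped, at 247, 305 and 310.1 in WT and 272, 276 and 267 in KO. Acaa2, the ketoacyl-CoA thiolase, read 256, 288 and 300.2, 225, 305 and 275 and 152, 218 and 221 in WT, KO and treated mixed mice. Treated mice were below both other mixed groups, with a called difference from KO (-0.45 ± 0.15, adjusted p = 0.0255) and none from WT (-0.53, adjusted p = 0.0651). The first of these was lost without KO mouse 7 or 8 or treated mouse 21 (-0.43 to -0.28). Echs1, the short-chain hydratase, lay at 127 to 177 over all libraries and was not called.

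Of the 4 genes for unsaturated chains, 1 was called in muscle. Ech1, a dienoyl-CoA isomerase, read 263, 276 and 309 in WT and 256, 238 and 216 in KO B6129 mice, and 303, 323 and 345 in WT, 242, 295 and 267 in KO and 186, 231 and 256 in treated mixed mice. The treated mice were below all 3 WT mice and overlapped the KO mice, and their difference from WT was called (-0.54 ± 0.11, adjusted p = 0.0255; -0.57 to -0.41 in the leave-one-out settings that lost it). The KO differences of -0.26 and -0.28 were not. Eci1, Eci2 and Decr1 lay at 81.1 to 159, 69.0 to 111 and 129 to 206 in the 15 muscles.

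The electron transfer genes fell in KO muscle on both backgrounds except for Etfb. Etfa, the alpha subunit of electron transfer flavoprotein, read 285, 355 and 382 in WT and 276, 266 and 251 in KO B6129 mice, and 369, 371 and 395, 249.8, 331 and 297 and 264, 316 and 325 in WT, KO and treated mixed mice. All KO libraries were below all WT libraries, with differences of -0.35 ± 0.12 (adjusted p = 0.0315) and -0.38 ± 0.12 (adjusted p = 0.0216), and treated mice overlapped the KO mice. Etfdh, the dehydrogenase that hands the electrons to ubiquinone, read 203, 238 and 284 in WT and 172, 169 and 149 in KO B6129 mice. On the mixed background it read 201, 214 and 246 in WT, 144, 185 and 186 in KO and 171, 202 and 208 in treated mice. KO libraries again lay below WT libraries, by -0.55 ± 0.13 (adjusted p = 0.00546) and -0.36 ± 0.13 (adjusted p = 0.045). The Etfa call was lost on B6129 without WT mouse 5 or 6 or KO mouse 2 or 3 (-0.36 to -0.27) and on the mixed background without WT mouse 4 or KO mouse 6 (-0.35 and -0.27). The Etfdh call held on B6129 whichever mouse was left out, and was lost on the mixed background without WT mouse 3 or 4 or KO mouse 6 (-0.38 to -0.24). These settings leave out mice only. Under scaling to total reads Etfa and Etfdh were not both called lower on B6129. Etfb, the beta subunit, read 236, 279 and 284 in KO and 203, 237 and 229 in treated mixed muscle, and its fall of 0.25 ± 0.09 with treatment was called (adjusted p = 0.0311) although the libraries overlapped. It was lost without KO mouse 7 or 8 or treated mouse 21 or 24 (-0.27 to -0.19).

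Promoter sequences from RefSeq (GRCm38.p6, from 250 bases before to 50 after the gene start, read along the gene's strand) were found for 28 of the 31 genes, in 32 windows. Acaa2, Decr1 and Cpt1b had no sequence and were not searched. Of these, only Cpt1b was called lower in KO muscle on both backgrounds. Both strands of each window were searched for the PPAR direct repeat, which is AGGTCA followed by a repeat of itself after any 1 base, with up to 2 mismatches in the 12 fixed bases, for the ERR element TCAAGGTCA, the NRF1 core GCGCATGC and the E-box CACGTG. The repeat was found in 6 of 32 windows (18.75%), those of Plin2, Cd36, Ucp3, Echs1, Etfa and Slc25a20, where 3.86% of 32851 mouse promoters hold it. With up to 1 mismatch none of the 32 and 0.554% of all promoters held it. The NRF1 core was in 4 windows (12.5%; 2.71% of all), the E-box in 3 (9.375%; 7.15% of all) and the ERR element in none (0.423% of all). Printed here are Etfa and Etfdh, which fell on both backgrounds, and Slc25a20 and Plin2, which moved in the mixed mice and hold a match to the repeat. Capitals mark the matches. In Etfa (chr9:55512194-55512493, minus strand) they are the NRF1 core, which starts 105 bases before the gene start, and then the PPAR repeat on the opposite strand. In Etfdh (chr3:79628718-79629017, minus strand) the NRF1 core is matched on both strands in overlap, from 128 bases before the start. Slc25a20 (chr9:108661886-108662185, plus strand) has the repeat just after the start, and Plin2 (chr4:86670010-86670309, minus strand) has it on the opposite strand 225 bases before the start, with the E-box at the start. The Ppard window held none of these letters.
Etfa: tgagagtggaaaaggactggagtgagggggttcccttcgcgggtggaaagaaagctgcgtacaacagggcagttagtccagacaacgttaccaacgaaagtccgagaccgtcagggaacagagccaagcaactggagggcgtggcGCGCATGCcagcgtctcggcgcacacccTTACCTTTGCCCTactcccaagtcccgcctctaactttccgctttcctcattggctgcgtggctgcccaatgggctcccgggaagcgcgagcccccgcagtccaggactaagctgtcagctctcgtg
Etfdh: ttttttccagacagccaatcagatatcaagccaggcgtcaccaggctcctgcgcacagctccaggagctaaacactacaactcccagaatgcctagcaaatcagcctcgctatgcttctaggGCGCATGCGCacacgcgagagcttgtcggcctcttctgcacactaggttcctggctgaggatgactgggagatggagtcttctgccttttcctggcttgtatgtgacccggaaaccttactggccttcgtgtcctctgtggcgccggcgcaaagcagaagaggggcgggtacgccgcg
Slc25a20: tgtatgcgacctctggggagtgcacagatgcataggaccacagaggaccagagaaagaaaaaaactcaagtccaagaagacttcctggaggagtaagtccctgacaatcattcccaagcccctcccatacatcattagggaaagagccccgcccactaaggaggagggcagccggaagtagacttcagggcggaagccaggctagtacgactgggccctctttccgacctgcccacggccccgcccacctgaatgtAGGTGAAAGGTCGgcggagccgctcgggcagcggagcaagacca
Plin2: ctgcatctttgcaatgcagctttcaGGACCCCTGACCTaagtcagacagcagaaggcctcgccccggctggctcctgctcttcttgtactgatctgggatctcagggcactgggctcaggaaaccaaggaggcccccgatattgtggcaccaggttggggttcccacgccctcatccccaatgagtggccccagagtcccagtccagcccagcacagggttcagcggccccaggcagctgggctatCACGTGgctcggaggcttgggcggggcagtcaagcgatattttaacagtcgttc

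Of the 3 droplet and lipolysis genes, Pnpla2 was called in mixed KO muscle and Pnpla2 and Plin2 with treatment, and none on B6129. Pnpla2, adipose triglyceride lipase, read 303, 282 and 393 in WT, 177, 183 and 224 in KO and 299, 396 and 352 in treated mixed quadriceps. The KO mice were below both other groups, which overlapped each other. Pnpla2 fell by 0.74 ± 0.16 in KO (adjusted p = 0.00278) and was 0.84 ± 0.16 higher with treatment (adjusted p = 0.000941), calls kept in 16 of 16 alternatives. On B6129 it read 261, 319.5 and 336 in WT and 323, 254 and 226 in KO mice, which overlapped (-0.20, adjusted p = 0.366). Plin2, a coat protein of lipid droplets, read 40.8, 71.1 and 59.7 in WT, 66.0, 78.6 and 76.5 in KO and 49.2, 39.4 and 44.8 in treated mixed muscle. Treated mice were below all KO mice, and Plin2 fell by 0.72 ± 0.15 with treatment (adjusted p = 0.00195), while KO and WT mice overlapped (0.40 ± 0.15, adjusted p = 0.0555). On B6129 the KO mice (55.6, 54.8 and 54.5) lay below the WT mice (62.6, 66.3 and 58.8) without a call. Lipe, hormone-sensitive lipase, ranged from 23.0 to 67.3 without a call. Adipocyte markers, which could add droplet genes from fat between the fibres, summed to 981 to 2978 in quadriceps, with 0 of 10 called on B6129, 1 higher in mixed KO mice and 0 with treatment; their part in the Plin2 and Pnpla2 values was not tested.

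Of the regulators, Ppard had the largest called difference of the 31 genes in muscle. Ppard, the PPAR isoform abundant in skeletal muscle, read 33.1, 35.1 and 34.7 in WT and 28.9, 27.3 and 25.7 in KO B6129 mice. In mixed mice it read 30.97, 32.1 and 38.5 in WT, 13.1, 17.2 and 18.4 in KO and 33.0, 43.9 and 32.9 in treated muscle. The 3 mixed KO mice were far below every other mouse, and the treated mice stood with the WT mice. Ppard fell 2.06-fold in mixed KO mice (-1.04 ± 0.14, limma adjusted p = 5.89e-05) and was 2.22-fold higher with treatment (1.15 ± 0.14, adjusted p = 2.07e-05). On B6129 KO mice lay below WT mice without a call (-0.32 ± 0.14, adjusted p = 0.0795), and the difference between the backgrounds, -0.72 ± 0.19, had an adjusted p of 0.152. Ppara read 8.03, 9.77 and 11.8 in WT and 7.04, 7.69 and 3.93 in KO B6129 mice and 4.39 to 15.7 in mixed mice, on 63 to 253 reads, without a call. Ppargc1a read 51.1, 55.6 and 54.5 in WT and 40.8, 29.9 and 31.8 in KO B6129 mice. In mixed mice it read 44.8, 52.6 and 167 in WT, 33.3, 46.2 and 52.6 in KO and 45.7, 71.6 and 47.8 in treated muscle. The B6129 groups did not overlap, and mixed WT mouse 4 was above all others; the differences of -0.66 ± 0.37 and -0.75 ± 0.37 were not called (adjusted p = 0.184 and 0.121). Ucp3, the uncoupling protein of skeletal muscle, read 76.9, 94.0 and 154 in WT and 52.7, 58.7 and 67.1 in KO B6129 mice, and 263, 89.7 and 377, 95.8, 161 and 188 and 224, 349.8 and 354 in WT, KO and treated mixed mice. It varied up to several-fold within WT mice, and the treated mice lay above the untreated KO mice without a call (1.08 ± 0.43, adjusted p = 0.0579).

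Genes of other cells in the muscle moved in the same comparisons. In bulk tissue, fewer fibres and less RNA per fibre cannot be told apart. All 12 macrophage markers were called higher in KO quadriceps on both backgrounds, with sums of 65.9 to 88.2 in WT and 331 to 434 in KO mice on B6129, and of 109.7 to 164 in WT and 275 to 538 in KO mice on the mixed background. With treatment 11 of the 12 were lower, at sums of 77.1 to 192. Of 10 endothelial markers 7 were lower in KO on B6129 and 5 on the mixed background, and 6 were higher with treatment, with sums of 212 to 287 in KO, 340 to 516 in WT and 373 to 559 in treated mice. Fast and general muscle fibre markers were lower in KO for 4 of 12 on B6129 and 5 of 12 on the mixed background, and 6 were higher and 1 lower with treatment. Slow fibre markers, from the fibres that rely most on fat, were higher in KO for 2 of 8 on B6129 and 5 of 8 on the mixed background, and 6 of 8 were lower with treatment. Their sums in mixed mice were 333 to 772 in WT, 731 to 1374 in KO and 251 to 614 in treated muscle, and 564 to 711 and 568 to 1317 in WT and KO mice of B6129. Fibroblast markers were higher in KO for 6 of 8 and 5 of 8. The part of these cells in the differences of the 31 genes was not tested.

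Other genes of the pathway were called in KO muscle in the numbers below, beside shares over all genes of 16.7% higher and 19.0% lower on B6129, 17.1% and 22.3% on the mixed background, and 23.6% and 17.1% with treatment. Of 24 other genes of mitochondrial fatty acid oxidation, 10 were lower and 2 higher in KO on B6129, and 10 lower and 3 higher on the mixed background, with medians of -0.24 and -0.21. Acat1, the mitochondrial acetoacetyl-CoA thiolase, fell by 0.71 ± 0.10 and 0.56 ± 0.10, and Acot9, a mitochondrial acyl-CoA thioesterase, rose by 0.98 ± 0.13 and 0.86 ± 0.13. Acacb, the acetyl-CoA carboxylase whose product inhibits the Cpt1b enzyme, fell by 0.77 ± 0.13 in mixed KO mice and was 0.97 ± 0.13 higher with treatment. Of 21 genes of peroxisomal oxidation, 7 were lower and 2 higher on B6129 and 5 lower and 3 higher on the mixed background. The carnitine octanoyltransferase gene Crot fell by 0.82 ± 0.09 and 0.69 ± 0.09 and was 0.75 ± 0.09 higher with treatment. The very-long-chain transporter Abcd2 fell by 1.46 ± 0.18 on B6129. Of 18 citrate cycle genes 11 were lower and 1 higher on B6129, and 13 lower and 1 higher on the mixed background; Suclg1 fell by 0.68 ± 0.10 and 0.62 ± 0.10, while Idh2 rose by 0.75 ± 0.12 and 0.83 ± 0.12 and fell by 1.17 ± 0.12 with treatment.

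Other regulators of oxidative metabolism were lower for 12 of 22 and higher for 1 on both backgrounds, with 10 higher and 2 lower on treatment. The AMP-activated kinase subunits Prkab2 and Prkaa2 fell by 1.02 ± 0.08 and 0.86 ± 0.08 on B6129, and Prkab2 was 1.23 ± 0.08 and Prkaa2 0.81 ± 0.08 higher with treatment. The other catalytic subunit, Prkaa1, rose by 0.73 ± 0.12 on B6129 and by 0.90 ± 0.12 on the mixed background, and fell by 0.97 ± 0.12 with treatment. PPAR target genes outside the 31 were lower for 4 of 14 on B6129, and for 2 with 1 higher on the mixed background; Ehhadh fell by 0.83 ± 0.18 and 0.56 ± 0.18. Lipid droplet and triglyceride synthesis genes were lower for 5 of 19 and higher for 1 on B6129, and lower for 3 and higher for 1 on the mixed background. Gpam, a glycerol phosphate acyltransferase, fell by 0.74 ± 0.18 and 0.81 ± 0.18 and was 1.43 ± 0.18 higher with treatment. Other uptake and activation genes were lower for 4 of 15 on B6129 (Acsl3 fell by 1.15 ± 0.22) and for 2 on the mixed background, with 1 higher on each. Under scaling to total reads these counts changed: other regulators were 2 higher and 4 lower on B6129 and 2 higher and 6 lower on the mixed background, the citrate cycle genes 2 and 5, then 3 and 1, and the other mitochondrial genes 7 and 3, then 7 and 2. The shares over all genes given for these lists belong to the deposited scaling and do not apply here. Under total reads most calls over all genes were higher on both backgrounds.

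In spinal cord the knockout moved few of the genes, and Plin2 was the gene called on both backgrounds. Of the 30 genes tested (Ppara was under the filter), 1 was called on B6129, where 1.16% of all 15838 genes were, and 3 on the mixed background, where 13.0% were (7.16% higher and 5.85% lower). Plin2 read 10.5, 9.79 and 11.0 in WT and 13.3, 15.0 and 15.0 in KO B6129 cord. In mixed mice it read 14.5, 14.9 and 11.9 in WT, 20.2, 18.2 and 17.6 in KO and 17.1, 16.3 and 20.1 in treated cord. Every KO and treated library was above the WT libraries of its background, by 0.45 ± 0.10 (limma, adjusted p = 0.0416), 0.43 ± 0.10 (adjusted p = 0.013) and 0.36 ± 0.10 (adjusted p = 0.0231). Fabp3 read 37.9, 39.2 and 36.5 in WT, 29.3, 36.0 and 30.1 in KO and 29.7, 30.1 and 30.4 in treated mixed cord, with WT mice highest, and fell by 0.26 ± 0.08 (adjusted p = 0.0403); on B6129 it read 19.2, 18.7 and 17.9 and 18.4, 21.8 and 19.4. Etfa fell by 0.17 ± 0.05 (adjusted p = 0.0421), from 48.7, 47.7 and 44.8 in WT to 41.5, 41.2 and 42.8 in KO. The B6129 call of Plin2 was lost when any mouse but KO mouse 1 was left out (0.41 to 0.49), and the mixed calls of all 3 genes were lost without KO mouse 6 (0.37 for Plin2, -0.20 for Fabp3 and -0.16 for Etfa). Without WT mouse 1, WT mouse 3 or KO mouse 8, 1 call was left. Without WT mouse 4, Plin2 (0.33) and Fabp3 (-0.28) were lost. In cord, a KO effect that differed by background was called for none of the 30 genes by limma, edgeR or DESeq2 (0.524% of all genes in limma), with 3 at an unadjusted p under 0.05.

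Treated cord did not differ detectably from untreated KO cord in any of the 30 genes in limma, nor did any of the 15838 genes (0.0%); edgeR called 2 of all genes (0.0126%) and DESeq2 167 (1.05%). At an unadjusted p under 0.05, 10 of the 30 genes passed, and 8 had all treated libraries above all KO libraries (6.25% of all genes) and none below (6.02%). Against WT cord, treated mice had 10 of the 30 genes higher and 1 lower, where 8.81% and 7.95% of all genes were called that way (16.8% in all); both comparisons use the same treated mice. Ppard read 12.2, 13.5 and 12.6 in WT, 14.7, 14.4 and 14.1 in KO and 15.5, 16.5 and 15.4 in treated cord, with no overlap between WT and treated mice (0.30 ± 0.06, adjusted p = 0.0051). Cpt2 read 10.8, 9.30 and 11.3, 12.0, 9.75 and 12.3 and 12.8, 16.0 and 15.0, and treated mice were above both other groups (0.47 ± 0.11 against WT, adjusted p = 0.0107). Acsl1 (24.7, 30.5 and 27.1 in WT, 34.4, 34.2 and 38.8 in treated) and Hadh (30.9, 31.9 and 24.7, 35.7, 36.6 and 40.1) were higher by 0.38 and 0.36. Lipe (11.5, 9.58 and 10.5 against 13.3, 18.6 and 13.3) was higher by 0.49 and Pnpla2 (23.9, 20.9 and 29.3 against 28.2, 42.0 and 31.3) by 0.44, with overlap for Pnpla2. The others higher were Plin2, Ech1, Hadhb and Acadvl, by 0.17 to 0.36, and Fabp3 was lower (-0.33 ± 0.08). With only these 2 groups in the fit, 1 of these 11 calls was left, and under total reads 7; without WT mouse 4 or treated mouse 22 there were 7, and without treated mouse 24 there were 6.

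**Figure D5:**
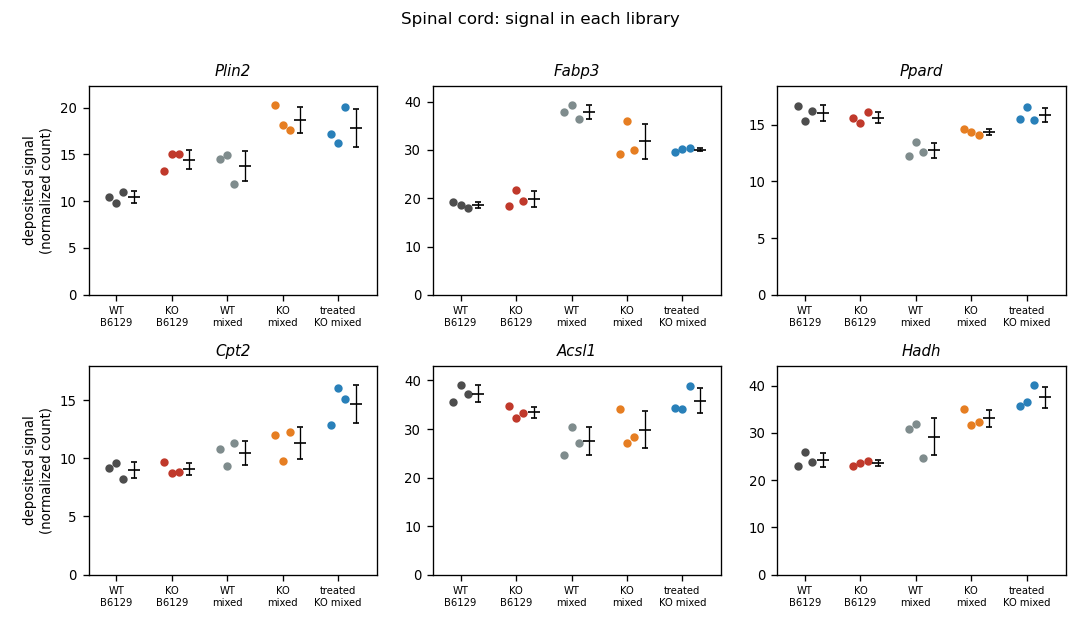
Deposited signal of 6 genes in each spinal cord library, with the mean ± SD of each group of 3 mice, on axes that start at 0. Plin2 is higher in all KO and treated libraries than in the WT libraries of the same background, and treated mice are above WT mixed mice for Ppard, Cpt2, Acsl1 and Hadh and below them for Fabp3.

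Markers of other cells moved with these cord comparisons too. Of 12 macrophage and microglia markers 8 were higher in KO cord on B6129 and 10 on the mixed background, and 7 in treated cord against WT. Their sums were 144 to 147 in WT and 343.9 to 344.3 in KO mice on B6129, and 149.7 to 176 in WT, 319.98 to 368 in KO and 205 to 311 in treated mixed mice. Of 8 astrocyte markers 2 were higher in KO on each background and 4 in treated mice, with sums of 3482 to 4117 in WT, 4682 to 6016 in KO and 5621 to 6742 in treated cord; Gfap stood at 793 to 1184 in WT and 1630 to 3406 in KO and treated mice. Of 10 endothelial markers 4 were higher in mixed KO cord, 2 in treated cord against WT and 0 in B6129 KO cord, with sums in mixed mice of 96.3 to 100.7 in WT, 129 to 145 in KO and 105 to 140 in treated cord, without overlap with WT. Adipocyte markers summed to 18.6 to 28.0 in WT and 27.6 to 35.8 in KO cord of B6129. In mixed mice the sums were 19.4 to 79.9 in WT, 46.9 to 75.4 in KO and 40.9 to 93.5 in treated cord. Adipoq, one of these markers, stood at 0.0152 to 1.38. The part of these cells in the Plin2 and other values was not tested.

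Across the backgrounds, WT cord differed for 23 of the 30 genes, 16 higher and 7 lower in mixed mice, where 66.8% of all genes were called (32.3% higher and 34.5% lower). Etfb read 24.3, 23.8 and 24.6 on B6129 and 57.9, 53.9 and 54.3 on the mixed background, and Fabp3 19.2, 18.7 and 17.9 and 37.9, 39.2 and 36.5, differences of 1.18 and 1.00 with no overlap (limma, adjusted p = 4.59e-09 and 2.74e-08). Slc27a1 (78.1, 78.7 and 83.2 against 52.9, 45.4 and 55.1) and Cpt1a (41.0, 36.7 and 33.7 against 23.2, 21.95 and 27.4) were lower in mixed mice by 0.64 and 0.61. Background, the Ltbp4D36/D36 allele and series cannot be told apart here. Mitochondrial genes held 6.99% to 7.37% of reads in B6129 and 13.2% to 17.0% in mixed WT cord, and the deposited signal summed to 611722 to 612932 and 753658 to 810947; their part in these differences was not tested. In the same comparison 7 of 10 oligodendrocyte markers were higher and 8 of 10 endothelial markers lower, and their part was not tested. Scaling to total reads moved the median over all genes from -0.02 to -0.34 and left 4 of the 30 genes higher and 13 lower, with the share of all calls that were higher going from 48.4% to 24.41%. Acadvl, Hadh, Hadhb and Ppargc1a were among the genes that changed sign, leaving aside genes that stayed uncalled. In WT quadriceps none of the 31 genes was called between backgrounds (2.57% of all genes), with 3 at an unadjusted p under 0.05 and none by edgeR or DESeq2, and 1 was called without mixed WT mouse 3.

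The knockout and treatment differences were then set against each other between the tissues of the same mice. The difference of the KO effect between quadriceps and cord was called for 3 of 30 genes on B6129 (25.4% of 13187 genes) and 4 on the mixed background (32.3%), and that of the treatment effect for 6 (33.6%). On B6129 the KO effect in quadriceps was below that in cord for Acadm (-0.69 ± 0.16, adjusted p = 0.00252), Etfdh and Plin2. For Plin2, KO quadriceps stood below WT without a call and KO cord rose. On the mixed background the KO effect was lower in quadriceps for Ppard (-1.21 ± 0.15, adjusted p = 1.88e-06), Pnpla2, Hadha and Ech1. The treatment effect was higher in quadriceps for Ppard (1.02 ± 0.15, adjusted p = 1.4e-05) and lower for Hadh, Acaa2, Plin2, Ech1 and Hadhb. With the mouse as a replicate block the counts were 4, 6 and 8, adding Decr1 on B6129 (-0.36, adjusted p = 0.0419), Eci1 (-0.47, adjusted p = 0.0209) and Slc27a1 (-0.45, adjusted p = 0.0417) on the mixed background, and Pnpla2 (0.41, adjusted p = 0.00947) and Etfb (-0.29, adjusted p = 0.0393) for treatment. These directions are relative to scaling: under total reads 1 gene was higher and 1 lower for KO on B6129, 2 and 1 on the mixed background and 1 and 14 for treatment. The shares of all genes called between tissues under total reads are not given here. Whether these counts are particular to the 30 genes was not tested. The medians of the 30 genes went from -0.27 to 0.004 on B6129, from -0.27 to 0.04 on the mixed background and from -0.06 to -0.35 for treatment, and those over all genes from -0.01 to 0.23, -0.05 to 0.23 and 0.04 to -0.23. The counts moved with single libraries: 8 on B6129 without quadriceps WT mouse 4 and 5 without quadriceps KO mouse 1, and on the mixed background 7 or 8 without quadriceps WT mouse 1 or 3, quadriceps KO mouse 7 or cord WT mouse 3, and 2 without quadriceps WT mouse 4, quadriceps KO mouse 6, cord WT mouse 4 or cord KO mouse 8.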

How the data were processed

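RNA was purified from snap-frozen quadriceps and spinal cord of the same mice, made into NEBNext Ultra libraries and read on an Illumina HiSeq2500 (one end, 61 bases), per the labels' protocols. The submitters' processing notes name cutadapt, RSEM, edgeR, limma and GRCm38, with no versions. The deposited values are a signal per gene, a normalized count on a linear scale; each deposited signal equals reads plus 0.5, divided by a scaled library size, since 100% of the values gave whole reads within 0.001. Those reads served the edgeR 4.0.16 and DESeq2 1.42.0 alternatives and the depths given, which bear on counting error only. Of the table's genes, 265 have no symbol, and 17388 identifiers (99.8%) were found in GENCODE vM21, the source of exon lengths. Treated cord columns were joined to samples by the animal number in the title.

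Genes that reached a signal of 1 in 3 or more libraries of a tissue (14113 in quadriceps, 15838 in cord, 13187 in both) were fitted as log2(signal + 0.5) in limma 3.58.1 (R 4.3.3; moderated tests with an intensity trend), with 5 groups per tissue sharing the spread, and p-values were adjusted over all genes fitted. Between tissues 30 libraries were fitted together; quadriceps and cord of a mouse deviated together (r of 0.109 to 0.354, each of 15 mice best with its own tissue), and the fit with the mouse as a replicate block was an alternative. The other alternatives were another pseudocount, filter, scaling or tool, only the groups compared, and each library left out; scaling to total reads, with or without mitochondrial genes, was added after seeing the data. The fitting was tested on simulated data. Values per library are given for called genes and for representatives of each role, and from each other list at most 2 called genes per direction are named. The members and lists were chosen with earlier results of these data known.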

Additional observations from a re-analysis of the deposited data

Results flagged for a closer look

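Differences of an effect between quadriceps and cord of the same mice passed limma's test for 13 pairs of gene and contrast, each the quadriceps effect minus the cord effect on the log2 scale with its SE. They were 3 of 30 genes for KO on B6129, 4 for KO on the mixed background and 6 for treatment (10%, 13.33% and 20%). Over all 13187 genes tested the shares called were larger, at 25.4%, 32.3% and 33.6%. On B6129 the KO effect differed for Acadm (-0.69 ± 0.16, adjusted p = 0.00252), Plin2 (-0.63 ± 0.19, adjusted p = 0.0156) and Etfdh (-0.54 ± 0.15, adjusted p = 0.00904). For Acadm and Etfdh the KO mice were below the WT mice in quadriceps and overlapped them in cord. For Plin2 the KO mice were below the WT mice in quadriceps and above them in cord.

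On the mixed background it differed for Ppard (-1.21 ± 0.15, adjusted p = 1.88e-06), Pnpla2 (-0.74 ± 0.22, adjusted p = 0.0135), Hadha (-0.40 ± 0.14, adjusted p = 0.0308) and Ech1 (-0.36 ± 0.13, adjusted p = 0.0462). Ppard of KO mice was below WT in quadriceps and above it in cord, where the difference was not called (0.17 ± 0.06, adjusted p = 0.0783).

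The treatment effect differed for Ppard (1.02 ± 0.15, adjusted p = 1.4e-05), Hadh (-0.57 ± 0.12, adjusted p = 0.000893), Acaa2 (-0.72 ± 0.17, adjusted p = 0.00231), Plin2 (-0.66 ± 0.19, adjusted p = 0.00968), Ech1 (-0.43 ± 0.13, adjusted p = 0.0157) and Hadhb (-0.34 ± 0.12, adjusted p = 0.0349). Among the mixed KO differences, that of Hadha was lost without quadriceps WT mouse 4, quadriceps KO mouse 6, cord WT mouse 4 or cord KO mouse 8 (-0.39 to -0.29), and that of Ech1 in 9 of the 12 leave-one-out settings (-0.38 to -0.28). Hadh and Acaa2 of treated mice were below untreated KO mice in quadriceps and above them in cord, where no gene was called between these groups. The Ech1 call was lost without quadriceps KO mouse 7 (-0.36) or treated mouse 21 (-0.30), and that of Hadhb in 8 of the 12 leave-one-out settings (-0.35 to -0.24).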

How the results depend on the processing

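Counts of called genes among the 31 (30 in cord) moved with the setting as follows, and the cause was not tested. Counts over all genes in these settings are not given here, so whether the moves are particular to the 31 genes was not tested. Quantile normalization gave 2 for KO in B6129 quadriceps, 11 for treated against untreated KO quadriceps, and between tissues 1 for mixed KO and 11 for treatment. Scaling to total reads gave 3 for KO in B6129 quadriceps, 18 for treated against KO and 4 for treated against WT quadriceps, 7 for treated against WT cord and 15 for treatment between tissues; without mitochondrial reads the quadriceps values were 2, 15 and 4. Shifting medians gave 2 for treated against WT quadriceps and 6 for KO between tissues on B6129, and a filter at a signal of 4 gave 2 for treated against WT quadriceps and 7 for mixed KO between tissues. With only the groups compared in the fit, the counts were 10 for KO in B6129 quadriceps, 0 for treated against WT quadriceps, 0 for mixed KO cord and 1 for treated against WT cord. DESeq2 gave 8 for KO in B6129 quadriceps, 11 and 6 for treated quadriceps against KO and WT and 1 for the difference between backgrounds in quadriceps, and edgeR gave 2 for treated against WT quadriceps.

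With 1 library left out, counts ranged from 3 to 7 for KO in B6129 and 4 to 9 in mixed quadriceps, 5 to 8 and 0 to 2 for treated quadriceps against KO and WT, and 0 to 1 for WT against WT quadriceps. Over all genes, in the same order, they ranged from 3878 to 4373, 4246 to 5275, 4751 to 5291, 124 to 448 and 187 to 596. In cord the counts of the chosen genes ranged from 0 to 1 and 0 to 3 for KO on B6129 and mixed. They ranged from 0 to 0 for treated against KO, 6 to 12 for treated against WT and 20 to 23 for WT against WT. In this order all genes gave 101 to 145, 918 to 1892, 0 to 35, 1462 to 2598 and 9862 to 10172. Between tissues the counts of the chosen genes ranged from 3 to 8, 2 to 8 and 4 to 7. All genes gave 2746 to 3289, 3609 to 4303 and 3890 to 4445 there. With the mouse as a replicate block the tissue comparisons gave 4, 6 and 8 of the chosen genes. Beyond the 5 calls it added, that fit changed no other call of these genes.

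A reversal is a change of sign in a gene that was called in the main fit or in the alternative. Genes that changed sign but stayed uncalled were left aside, so the reversals below are not every change of sign. Reversals came only from the scalings to total reads, which were chosen after seeing the data. In treated against KO quadriceps Acadm reversed (-0.27). In WT against WT cord Acadvl (-0.32), Hadh (-0.085), Ppargc1a (-0.24) and Hadhb (-0.14) reversed. In that cord comparison Acadvl (-0.20) and Hadhb (-0.021) also reversed when mitochondrial reads were left out. Of the other single-gene values outside leave-one-out settings, 2277 kept direction and side of the threshold, or stayed uncalled, 83 lost a call and 34 gained one. Depth limits Ppara in both tissues, Cpt1a in quadriceps, and Cd36, Cpt1b and Ucp3 in cord most.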
